A study of Mus musculus with 2 samples.

Results

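Retnla and Spp1 are a pair of secreted products that mark different states of macrophages, and they were followed here in cells of the mouse cervix together with Ccl17, Cd72, Ms4a7 and Slamf9. The 6 genes were taken by symbol from the 31053 genes of the study, and they were selected on their UMI counts in C1q cells of these same libraries. Their levels and their contrast between the libraries are therefore given as a description, with no test. Macrophages were taken as cells with at least 3 UMIs (unique molecular identifiers, each standing for 1 captured transcript) of C1qa, C1qb and C1qc in sum, the genes of complement component C1q. Such cells are called C1q cells below.

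The study compared 2 single-cell libraries of cervix each from 9 pooled females of strain C57BL6/129 whose ovaries were removed at an age of 7 to 8 weeks. After 2 weeks of recovery, control mice were left without treatment for 15 days. Progesterone mice received E2 (oestradiol) in corn oil under the skin at 100 µg per day on 2 days, then a pellet of 25 mg made for 21 days of release, about 1 mg of progesterone per day. Both libraries thus came from mice without ovaries, and no vehicle-treated library was used here, so E2, progesterone, injection and pellet cannot be told apart. Cervix was cut below the transition zone, freed of vaginal tissue, and digested with a cold protease at 4 °C.

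With 1 library per group there is no replicate of either condition and no test between them. Levels are UMIs of a gene per 1000000 UMIs of the cells named (CPM). The brackets hold 95% intervals, exact Poisson for levels, exact Clopper-Pearson for shares of cells and conditional binomial for ratios. They cover counting error only, and neither the spread between mice nor that between cells.

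Macrophages take on different programmes with the signals around them. Retnla encodes resistin-like alpha, which is induced in mouse macrophages by the type 2 cytokines IL-4 and IL-13 through STAT6 and is a standard marker of alternative activation. Spp1 encodes osteopontin, a secreted phosphoprotein that binds integrins and CD44 and is made by macrophages in injured or lipid-laden tissue, but also by epithelium. Ccl17 is a chemokine that draws CCR4-bearing T cells and is made mainly by dendritic cells and some macrophages. Cd72 is an inhibitory receptor with a C-type lectin domain, Ms4a7 a membrane protein enriched in macrophages, and Slamf9 a receptor of the SLAM family.

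GENCODE (GRCm38) annotates all 6 as protein-coding genes. It places Retnla (ENSMUSG00000061100) at chr16:48842551-48844461 on the plus strand and Spp1 (ENSMUSG00000029304) at chr5:104435118-104441050 on the plus strand. Further it places Ccl17 (ENSMUSG00000031780) at chr8:94810453-94812036 on the plus strand and Cd72 (ENSMUSG00000028459) at chr4:43446462-43454628 on the minus strand. The last pair is Ms4a7 (ENSMUSG00000024672) at chr19:11321039-11336146 on the minus strand and Slamf9 (ENSMUSG00000026548) at chr1:172475358-172478575 on the plus strand.

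The upstream sequences of Retnla and Spp1 are shown as background on the pair. They were read from RefSeq promoter windows (GRCm38.p6), plus strand for both genes, 5′ to 3′. Capitals mark matches to the STAT6 spacing (TTC and GAA parted by 4 bases), TTGCNNAA (C/EBP), TGANTCA (AP-1) and TATAAA on either strand. Retnla spans chr16:48842359-48842550 and stops at the start that GENCODE annotates, and Spp1 spans chr5:104434861-104435110.
Retnla: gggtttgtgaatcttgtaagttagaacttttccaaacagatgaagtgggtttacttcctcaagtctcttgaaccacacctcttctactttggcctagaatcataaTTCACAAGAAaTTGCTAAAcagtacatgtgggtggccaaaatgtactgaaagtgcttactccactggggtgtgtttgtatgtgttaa
Spp1: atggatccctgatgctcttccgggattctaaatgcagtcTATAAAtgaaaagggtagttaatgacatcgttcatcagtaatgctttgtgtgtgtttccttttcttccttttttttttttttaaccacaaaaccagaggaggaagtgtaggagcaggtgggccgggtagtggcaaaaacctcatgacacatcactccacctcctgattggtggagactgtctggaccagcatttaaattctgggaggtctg

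In the Retnla sequence a STAT6-spaced match, TTCACAAGAA, began 145 bases before the RefSeq start and was followed after 1 base by the C/EBP match TTGCTAAA at 134 bases. Among 32851 RefSeq promoters searched over 250 bases, 5.85% held the STAT6 letters and 9.56% the C/EBP letters. A TATAAA match stood 30 bases before the RefSeq start of Retnla, past the printed end, and 12.4% of promoters held one. The Spp1 window held TATAAA 211 bases before its start and no match to the STAT6, C/EBP or AP-1 letters. Of the other 4 genes, Ccl17 and Ms4a7 held the STAT6 letters, 154 and 13 bases before their starts, and Cd72 and Slamf9 did not. GAGGAA, the PU.1 core, was in the windows of Retnla, Spp1, Ccl17, Cd72 and Slamf9 and in 23.3% of all promoters. These are matches of letters, not measured binding.

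C1q cells numbered 139 of 4579 analysed control cells (3.04%) and 350 of 8541 progesterone cells (4.10%). The 5368 control and 10853 progesterone barcodes held 21658684 and 44811069 UMIs, and the libraries shared 19 barcode sequences, 0.354% and 0.175% of their barcodes. Of the gate, 133 control and 282 progesterone C1q cells fell in the macrophage-like cluster, and 6 and 68 fell elsewhere. The C1q genes were not left out of the clustering and are among the markers that named this cluster. The overlap is therefore no independent support for the label of macrophage. Csf1r, the receptor for the macrophage growth factor CSF1, was at 969 CPM in control and 249 in progesterone C1q cells. Of the 10 dendritic cell markers, Cd209a, Xcr1, Clec9a and Ccr7 were at 0 in both libraries, Flt3 had 0 and 1 UMIs, and the list summed to 227 and 84.96 CPM, chiefly from Itgax. The gate held different cells in the 2 libraries. The median C1q count was 16 UMIs per control cell and 8 per progesterone cell, at a median depth of 1505 and 2209 UMIs, and the 10 keratin genes, an epithelial signal, were at 2756 and 8491 CPM. The 8 luminal epithelial markers, among them the mucin Muc5b, summed to 161 CPM in control and 3959 CPM in progesterone C1q cells. The 5 erythrocyte markers, chiefly haemoglobins, summed to 34.6 and 26120 CPM, and 10 progesterone cells held 27840 of their 27978 UMIs. With at least 10 C1q UMIs the erythrocyte sums were 20.8 and 407 CPM, and the luminal sums 46.8 and 557. The 10 squamous epithelial markers summed to 2795 and 7523 CPM over the gate, and still to 770 and 2951 CPM with at least 10 C1q UMIs. Just inside the limit, 17 control and 127 progesterone cells had 3 to 5 C1q UMIs, and just outside it 64 and 408 had 1 or 2. Values are therefore given also for cells with at least 10 C1q UMIs, 99 in control and 161 in progesterone. The part of keratin-bearing cells in the levels below was not tested beyond this limit and a keratin limit. Without the 10 progesterone cells above 1% erythrocyte UMIs, a limit added after the data were seen, the direction of all 6 genes was the same.

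Retnla was rare and intense. In control, 25 Retnla UMIs lay in 1 C1q cell, and in progesterone 414 lay in 7 cells, which held 119, 114, 65, 41, 39, 33 and 3 UMIs. The level was 96.1 CPM [62.2 to 142] in control and 387 CPM [350.2 to 426] in progesterone, a ratio of 4.02 [2.69 to 6.29]. The share of C1q cells with a Retnla UMI was 0.719% [0.0182 to 3.94] and 2.00% [0.808 to 4.08], and these intervals overlap. The counts of transcripts differed beyond counting error, while a difference in the shares of cells that carried them was not detectable at these numbers. The 1 control cell held all control Retnla UMIs, so leaving out the highest cell of each library fixed the control at 0. Progesterone kept 6 carrying cells. The ratio was then 23.9-fold against a floor of 3 counts in control, and it does not show a larger difference than the ratio of 4.02. In cells with at least 10 C1q UMIs Retnla was 7.22-fold higher with progesterone, at 130 and 940 CPM. The progesterone cells above 1% erythrocyte UMIs included 1 Retnla cell with 114 Retnla UMIs, and without them Retnla was at 292 CPM, a ratio of 3.04. Macrophages were also chosen by at least 3 UMIs of Csf1r, Adgre1, Cd68 and Fcgr1 (93 control and 107 progesterone cells). Retnla was then at 0 UMIs in control and 1734 CPM in progesterone, from 615 UMIs in 8 cells. This was 123-fold higher against a floor of 3 counts in the library. The control Retnla cell with 25 UMIs was not among the cells so chosen. The floor covers counting error only, and 1 carrying cell could exceed it.

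Spp1 was higher in control. In control, 252 Spp1 UMIs lay in 31 C1q cells, with 125, 22, 19 and 17 in the highest 4 cells, and in progesterone 16 UMIs lay in 12 cells, with 5 in the highest and 1 in each of the others. Spp1 was at 969 CPM [853 to 1096] in control and 14.9 CPM [8.54 to 24.3] in progesterone, 64.9-fold lower [39.2 to 115]. The single control cell with 125 UMIs held 49.6% of the control count. Without it the control level was 495 CPM and the difference 33.2-fold. The size also moved with the choice of cells and of average. Macrophages chosen by Csf1r, Adgre1, Cd68 and Fcgr1 had Spp1 at 965 and 90.2 CPM, 10.7-fold lower, the mean of each cell's CPM was 21.4-fold lower, and with doublets kept the difference was 37.9-fold. The share of cells with a UMI hardly rests on that cell: it was 22.3% [15.7 to 30.1] for control and 3.43% [1.78 to 5.91] for progesterone. After each cell was thinned to 2000 UMIs, which left out 94 control and 165 progesterone cells, Spp1 was in 28.9% [16.4 to 44.3] and 2.16% [0.592 to 5.44] of cells. Keratin-rich cells outside the gate had Spp1 in 1.57% of control and 0.198% of progesterone cells at the same depth, at median depths of 5106 and 4811 UMIs before thinning. Since epithelium can make Spp1, these shares are no measure of free RNA. The 10 neutrophil markers were at 1668 CPM in control and 1183 CPM in progesterone C1q cells, and the control cell with 22 Spp1 UMIs had 89 UMIs of them. Their part in the Spp1 level was not tested.

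Ccl17 was also mainly a control signal. It had 127 UMIs in 9 control C1q cells and 15 UMIs in 1 progesterone cell, at 488 CPM [407 to 581] and 14.0 CPM [7.84 to 23.1], 34.9-fold lower. The share of cells was 6.47% [3.003 to 11.9] against 0.286% [0.00723 to 1.58]. Unlike Spp1, Ccl17 lay mainly in control cells with little C1q, though few cells carried it. The level was 1531 CPM [1251 to 1855] with 3 to 9 C1q UMIs, where 104 UMIs lay in 6 cells. The highest of these held 45, 30 and 26 UMIs. It was 211 CPM [132 to 320] with 10 to 29 (22 UMIs in 2 cells) and 11.3 CPM (1 UMI) with 30 or more. With at least 10 C1q UMIs the control level was 120 CPM and the progesterone count 0. With macrophages chosen by Csf1r, Adgre1, Cd68 and Fcgr1, Ccl17 was at 273 and 42.3 CPM, 6.45-fold lower.

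The membrane proteins Cd72, Ms4a7 and Slamf9 were carried by many cells of both libraries. Cd72 was in 30 control and 106 progesterone C1q cells, at 142 CPM [100.1 to 196] and 274 CPM [244 to 308], a ratio of 1.93 [1.37 to 2.80]. Slamf9 was in 26 and 119 cells, at 154 CPM [109.8 to 209] and 237 CPM [209 to 268], a ratio of 1.54 [1.10 to 2.21]. Ms4a7 was in 62 and 182 cells, at 580.5 CPM [492 to 681] and 715 CPM [665 to 768], a ratio of 1.23 [1.03 to 1.48]. The highest single cell held at most 8.11% of a library's count for these 3 genes, so no cell decided their levels. Thinned to 2000 UMIs, Cd72 was in 6.67% [1.40 to 18.3] of the control C1q cells and in 25.4% [19.3 to 32.3] of those from progesterone mice, a difference beyond the intervals that rests on 3 control cells. Without thinning the shares were 21.6% [15.1 to 29.4] and 30.3% [25.5 to 35.4], and the intervals overlap. The thinned shares of Ms4a7 (42.2% and 40.0%) and Slamf9 (20% and 25.9%) lay within each other's intervals, and the unthinned shares of Ms4a7 were 44.6% and 52.0%. The unthinned shares of Slamf9 were 18.7% [12.6 to 26.2] and 34.0% [29.05 to 39.2], which do not overlap.

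**Figure D1:**
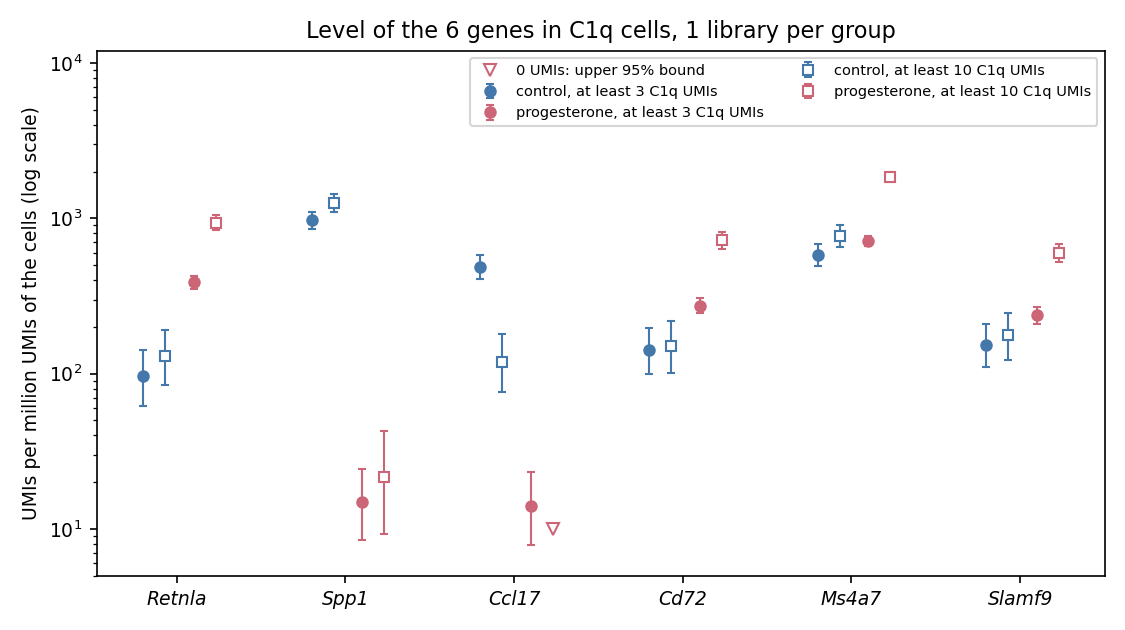
Level of each gene in C1q cells of the control (blue) and progesterone (red) library, in CPM on a log axis, with 95% Poisson intervals. Filled circles are cells with at least 3 C1q UMIs, open squares those with at least 10, and the open triangle is the upper bound for Ccl17 at 0 UMIs. Spp1 stood at 969 against 14.9 and Ccl17 at 488 against 14.0, while the progesterone levels of Cd72, Ms4a7 and Slamf9 were far higher under the stricter limit.

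The stricter limit widened the differences of all 3 of these genes. With at least 10 C1q UMIs, Cd72 stood at 151 and 722 CPM, 4.78-fold higher with progesterone. Ms4a7 stood at 770 and 1855 CPM, 2.41-fold higher, and Slamf9 at 177 and 600 CPM, 3.39-fold higher. The C1q ranges differed in this. Among cells with 3 to 9 C1q UMIs (40 control and 189 progesterone), Cd72 was at 118 CPM [50.9 to 232] and 37.2 CPM [24.3 to 54.4], and Slamf9 at 88.3 CPM [32.4 to 192] and 44.3 CPM [30.1 to 62.9], both lower with progesterone. Ms4a7 was at 44.2 CPM [9.11 to 129] and 110 CPM [86.8 to 138] there, and the intervals overlap for each gene. Among cells with 10 to 29 C1q UMIs (70 control and 84 progesterone), Ms4a7 was at 807 and 821 CPM, Slamf9 at 231 and 205 CPM, and Cd72 at 192 and 301 CPM, with overlapping intervals for each gene. Among cells with 30 or more (29 and 77), Ms4a7 was at 726 CPM [559 to 928] and 2526 CPM [2323 to 2743], Cd72 at 102 [46.7 to 194] and 995 [869 to 1134], and Slamf9 at 113 [54.4 to 209] and 857 [740 to 987]. The median depth of these last cells was 2873 UMIs in control and 2641 in progesterone, and their keratin share 0.0511% and 0.0724%, both close in the 2 libraries. The lower ranges were not matched in depth. The medians were 916.5 UMIs in control and 3215 in progesterone with 3 to 9 C1q UMIs, and 1403.5 and 865.5 with 10 to 29. The part of this in the levels of those ranges was not tested. All 3 genes were found together in 51 of the 77 progesterone cells with 30 or more C1q UMIs and in 1 of the 29 control cells. The C1q ranges were chosen after the data were seen.

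**Figure D2:**
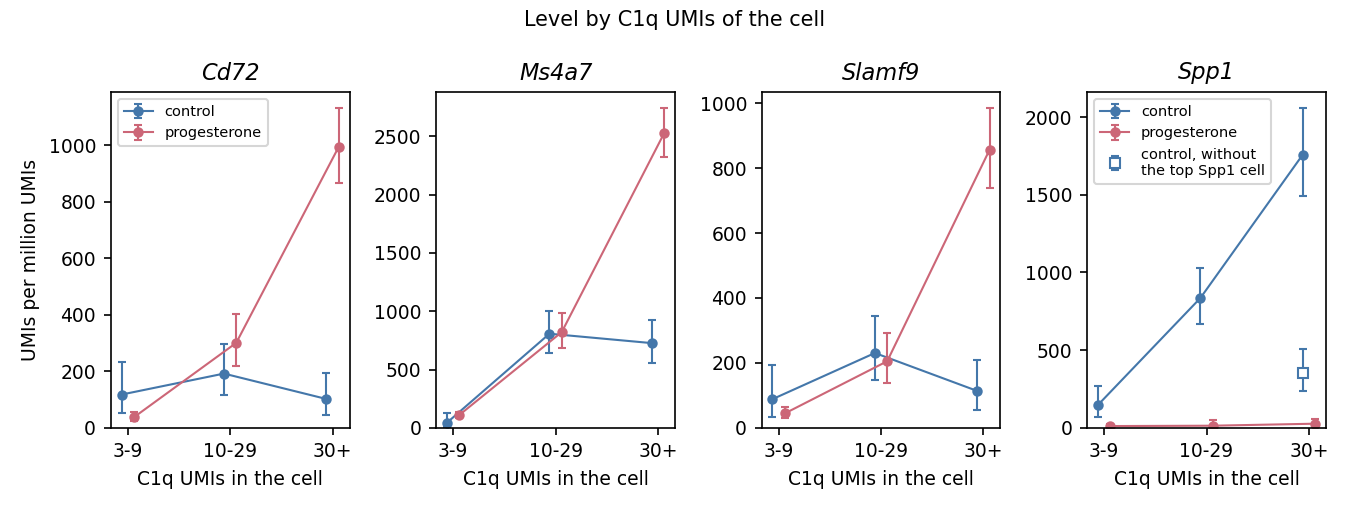
Level of Cd72, Ms4a7, Slamf9 and Spp1 (CPM, 95% Poisson intervals) in C1q cells split by their C1q UMIs, control in blue and progesterone in red. The libraries overlap at 3 to 9 and at 10 to 29 C1q UMIs for the first 3 genes and separate at 30 or more. The open square is Spp1 in control without the cell of 125 Spp1 UMIs, at 355.

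Control Spp1 was at 147 CPM [70.6 to 271] with 3 to 9 C1q UMIs, 836 CPM [669 to 1031] with 10 to 29 and 1759 CPM [1493 to 2059] with 30 or more. The cell with 125 Spp1 UMIs had 74 C1q UMIs, and without it the last value was 355 CPM [239.8 to 507]. The order of the upper ranges thus turned with 1 cell. In progesterone, Spp1 was at 11.4, 13.7 and 26.6 CPM over the same ranges, below the control value in each.

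These differences were set beside all genes. Of 6836 genes with at least 20 UMIs over the C1q cells of both libraries, 13.3% were past 2-fold higher with progesterone, 15.8% past 2-fold lower and 29.1% either way. Of the 6 genes 1 was higher (Retnla) and 2 were lower (Spp1 and Ccl17). With at least 10 C1q UMIs, 5.88% of 3691 genes were past 2-fold higher, 10.1% lower and 16.0% either way, and of the 6 genes 4 were higher and 2 lower. Because the genes were chosen for these values, nothing is read from either count. The median log2 ratio over all genes was −0.17, and it was 0.03 when mitochondrial, ribosomal protein and the 20 most abundant genes were left out of the denominator. That change moved the share of higher genes among those past 2-fold from 45.8% to 60.7%, and the direction of none of the 6 genes.

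Retnla and Spp1 were not found in the same C1q cell in either library. In control, 1 cell had Retnla, 31 had Spp1 and 107 had neither, and in progesterone 7 had Retnla, 12 had Spp1 and 331 had neither. The numbers are small: 0 of 7 progesterone cells with Retnla allows a Spp1 share of up to 41.0% (Clopper-Pearson), while Spp1 was in 3.50% of the cells without Retnla. At these shares an exclusion was not detectable in progesterone, and in control the absence of a joint cell rests on 1 Retnla cell. The count of joint cells was also 0 for all cells of the macrophage-like cluster, with at least 2 UMIs, with doublets kept, with at least 10 C1q UMIs and with a keratin limit.

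**Figure D3:**
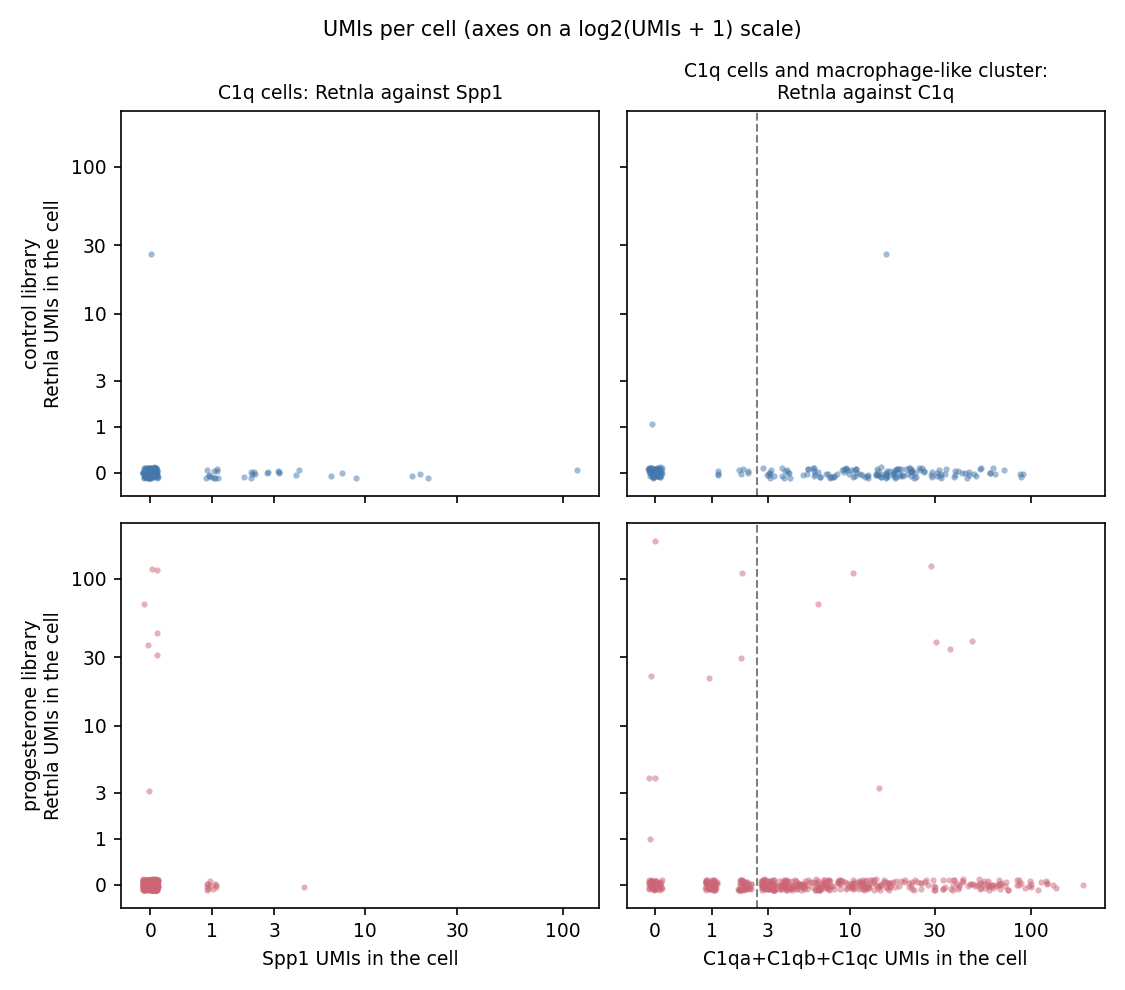
UMIs per cell, control above and progesterone below, with axes on a log2(UMIs + 1) scale and points jittered. The left panels plot Retnla against Spp1 in C1q cells, and no cell has both. The right panels plot Retnla against C1q UMIs in C1q cells and in the rest of the macrophage-like cluster, and the dashed line is the limit of 3 C1q UMIs. In progesterone 5 cells with 22 to 172 Retnla UMIs lie left of the line.

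Cd72 was not found with Retnla either. None of the 7 progesterone Retnla cells had Cd72 (0%, up to 41.0%), against 30.9% [26.1 to 36.1] of the 343 without Retnla, and these intervals overlap. Among cells with 30 or more C1q UMIs, 0 of 3 Retnla cells and 61 of the 74 others (82.4%) had Cd72, and 0 of 3 against 71 of 74 (95.9%) had Ms4a7. Over all progesterone C1q cells, Ms4a7 was in 1 of 7 Retnla cells (14.3% [0.361 to 57.9]) and 52.8% of the others, and Slamf9 in 2 of 7 and 34.1%.

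Cd72, Ms4a7 and Slamf9 kept company with each other in progesterone. Ms4a7 was in 84 of 106 cells with Cd72 (79.2% [70.3 to 86.5]) and in 40.2% [34.0 to 46.6] of cells without it. Slamf9 was in 69 of the 106 (65.1% [55.2 to 74.1]) and in 20.5% [15.6 to 26.1] of the rest. Median depth was 2192 UMIs in cells with Cd72 and 2290 in cells without. The C1q count was not matched between them. In progesterone Cd72 was in 20 of 189 cells with 3 to 9 C1q UMIs and in 61 of 77 with 30 or more. Ms4a7 was in 29.6% and 92.2% of these cells. The pairs were not split by C1q range, and its part in these shares was not tested. In control, Ms4a7 was in 43.3% [25.5 to 62.6] of cells with Cd72 and 45.0% [35.4 to 54.8] of cells without. Slamf9 stood at 33.3% [17.3 to 52.8] and 14.7% [8.63 to 22.7] there, with overlapping intervals. All 3 genes were in 63 of 350 progesterone and 6 of 139 control C1q cells. Spp1 and Slamf9 met in 1 of 31 control Spp1 cells (3.23% [0.0816 to 16.7]), against 23.1% [15.6 to 32.2] of the control cells without Spp1. In progesterone 6 of 12 Spp1 cells had Slamf9.

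Cells with at least 20 Retnla UMIs (a limit set with the values in view) numbered 11 in progesterone, and all lay in the macrophage-like cluster. Only 6 of them passed the C1q limit. The other 5 had 172, 110, 32, 23 and 22 Retnla UMIs and 0 to 2 C1q UMIs. In control the single C1q cell with 25 Retnla UMIs was the one such cell.

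The genes named next were partly picked after their values were known, and are given as counts of cells. Of the 6 Retnla cells with C1q, 6 had Mrc1 (the mannose receptor), 5 had F13a1 (a coagulation factor subunit of resident macrophages), and 3 had Lyve1, the hyaluronan receptor of vessel-associated macrophages. Cd163, Folr2, Fcna and the eosinophil chemokine Ccl24 were each in 3 of the 6, and the lectin Clec10a in 4. Lyve1, Cd163, Ccl24 and Fcna had 0 UMIs in the 275 progesterone C1q cells of the cluster without Retnla, and Mrc1 was in 16 of them. In control, Mrc1 was in 22 C1q cells, while 1 had Retnla. One of the 5 Retnla cells under the limit, with 22 Retnla UMIs, also held 100 keratin UMIs among its 7706, and the other 4 held 0 or 1. The 5 had no UMI of Mrc1, Lyve1, Cd163, Folr2, Fcna or Ccl24, but 2 of them had F13a1 (10 UMIs) and 1 had Clec10a. All 5 had Fn1 (fibronectin), Ear2 (a ribonuclease), and Ccr2, the receptor that guides monocytes out of the blood, and 3 had Lyz1. In the 6, Fn1 and Ear2 were in 2 cells, Ccr2 in 3 and Lyz1 in 1, and the 2 cells with Fn1 had no Lyve1.

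Both sets shared a part of their profile. Ccl6, a CC chemokine of myeloid cells, was in 6 of 6 and 5 of 5 cells, at 3624 and 1946 CPM. It stood at 29 CPM in progesterone C1q cells of the cluster without Retnla. Ccl9 was likewise in every cell of both sets, at 1529 and 898 CPM against 34.8. Cd72 was at 0 UMIs in all 11 cells, against 422 CPM in the others, and Ms4a7 had 1 UMI over the 11 cells, against 1079 CPM. Cd63, a lysosomal tetraspanin, was at 0 in both sets against 625 CPM. Apoe, the lipid carrier, was at 3680 CPM and 49.9 CPM, below the 11587 CPM of the others. These others were progesterone cells only. In control C1q cells without Retnla, Ccl6 was at 286 CPM and Ccl9 at 355 CPM, above the 29 and 34.8 CPM of progesterone. The control Retnla cell had 15 C1q UMIs, with 9 UMIs of Ccl6, 4 of F13a1, 2 of Mrc1 and 1 each of Lyve1 and Ms4a7. Retnlg, a paralogue of Retnla used by neutrophils, had 0 UMIs in all 11 cells and in the control cell.

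Genes that went with a member in both libraries were ranked by the lower interval bound of the CPM ratio, cells with the member over cells without it, taking the lower of the 2 libraries. Retnla was ranked although 1 control cell held it, so its control values are those of that cell. For Retnla the first 8 of 1865 genes were Ccl6, F13a1, Rap1b, Ccl9, Ahnak, Ctsc, Crip1 and Ninj1. Ccl6 was 65.9-fold [45.2 to 96.7] higher in Retnla cells of progesterone and 29.8-fold [13.1 to 59.8] in control. F13a1 had 45 UMIs in the 7 progesterone Retnla cells and 5 UMIs in the other 343. In control, F13a1 had 4 UMIs in the Retnla cell and 37 in C1q cells without Retnla. Its level in cells without Retnla was 143 CPM in control and 4.76 CPM in progesterone, so control cells without Retnla also carried it.

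For Spp1 the first 8 of 1866 were Lgals1, Fth1, Lyz2, Ftl1, Srgn, Vim, Ctsd and Plek, which include both ferritin chains (Fth1 and Ftl1), the macrophage lysozyme Lyz2 and the lysosomal protease Ctsd. Lgals1, a galectin, was 3.16-fold [2.42 to 4.13] higher in Spp1 cells of control and 6.44-fold [3.95 to 10.1] in progesterone. Fth1 was 2.21-fold [2.08 to 2.34] and 3.56-fold [3.28 to 3.85] higher. Cd72 went with AW112010, Ifi44 and Msn, of which AW112010 and Ifi44 are interferon-induced. Ms4a7 went with Ctsb, Cd63 and C1qc, 1 of the gate genes, and Slamf9 with Selplg, Lacc1 and Pea15a. Apart from Retnla and Spp1, a gene was ranked only where at least 10 C1q cells of each library held it, which left out Ccl17 with 9 and 1.

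Retnla cells and Spp1 cells of the progesterone library were also set against each other. The 12 Spp1 cells held 16 Spp1 UMIs, with 5 in the highest and 1 in each of the others. Of these cells 10, with 10 of the UMIs, lay in the macrophage-like cluster. Of 370 genes with at least 20 UMIs, 10.0% were past 2-fold higher in Retnla cells, 18.1% lower and 28.1% either way. Mrc1 was at 1930 CPM in the 7 Retnla cells and 189 in the 12 Spp1 cells, and F13a1 had 45 and 1 UMIs. Of 7 genes of MHC class II presentation, 5 were past 2-fold lower and 0 higher, with a median log2 ratio of −1.62 against −0.12 over all genes. Cd74, the invariant chain, was at 6544 CPM in Retnla cells and 20598 in Spp1 cells. Of its 763 UMIs in Spp1 cells, 165 lay in 1 cell that also had 15 Ccl17 and 8 dendritic list UMIs. The difference was not particular to Spp1 cells. Cd74 was at 6228 CPM in the 6 C1q cells with at least 20 Retnla UMIs and 16064 in the 275 C1q cells of the cluster without Retnla. H2-Eb1 was at 2265 and 5199 CPM there. Of the 3 C1q genes, 2 were also past 2-fold lower in Retnla cells than in Spp1 cells. Il1b and Cxcl2, both inflammatory, had 0 UMIs in Retnla cells and 35 and 20 in Spp1 cells. Retnlg, a neutrophil gene, also had 0 and 43 UMIs, and its part in the inflammatory values was not tested.

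Lists of related genes were read in cells with at least 10 C1q UMIs, where 5.88% of all genes were past 2-fold higher with progesterone and 10.1% lower, and the median log2 ratio (0.5 added to each count) was −0.18. The counts of each list are to be read beside these shares. The genes of lipid-associated macrophages, a programme in which Spp1 is often found, had 2 of 15 past 2-fold higher and 7 lower with progesterone, with a median of −0.93. Fabp5, a fatty acid binding protein, stood at 1160 CPM in control and 105 CPM in progesterone, Ctsd stood at 3038 and 719 CPM, and Lgals3 at 2752 and 689 CPM. Fabp5 was also a leading gene of squamous-like cluster 1 (417 control and 4 progesterone cells) and of cluster 7 (713 and 47), left without a name. The part of RNA from such cells in its level was not tested. Apoe lay the opposite way, at 5150 and 18319 CPM, as did Cd9, a tetraspanin, at 83.2 and 202 CPM.

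Of 7 receptors of osteopontin, 0 were higher and 3 lower (Cd44, Itgav and Itga5), with a median of −0.79. Cd44 was at 125 CPM in control and 51.2 in progesterone, and Itga5 had 19 and 2 UMIs. Of 9 genes of alternative activation, the programme in which Retnla is counted, 1 was higher and 1 lower, with a median of −0.29. Clec10a had 2 UMIs in control and 19 in progesterone, and Arg1, which makes ornithine from arginine, 25 and 1. Among 6 genes of resident macrophages 2 were higher and 1 lower, with a median of 0.12. The cytokines Il4 and Il13, known inducers of Retnla, had 0 UMIs in these cells of both libraries. The signal transducer Stat6 had 11 and 13 UMIs, at 57.2 and 35.0 CPM, and Il4ra was at 151 and 86.2 CPM.

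Among the relatives of Ms4a7, 0 of 4 measured Ms4a genes were past 2-fold, with a median of −0.02. Ms4a6c was at 614 and 509 CPM, and Ms4a6b at 234 and 226. Of 5 measured SLAM genes 1 was higher and 1 lower, with a median of 0.45. Slamf8 was at 52.0 and 156 CPM, and Slamf7 at 125 and 61.9 CPM. Of 4 genes around Cd72 signalling, Btk was past 2-fold lower and 0 were higher. Ptpn6, the phosphatase that CD72 recruits, was at 245 and 229 CPM. Of 8 class II genes 1 was past 2-fold higher (H2-Eb1, at 4229 and 8629 CPM). Of 5 inflammatory genes 1 was higher and 1 lower. Of 7 CC chemokines 3 were higher and 1 lower, and Ccl8 had 1 UMI in control and 62 in progesterone. Ccr4, the receptor of Ccl17, had 0 UMIs, and Ccl22, its sister ligand, had 1 and 0. The difference between a member and its family was not tested.

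The lists stood lower over all C1q cells, where 13.3% of genes were past 2-fold higher and 15.8% lower. Of the lipid-associated genes 1 of 16 was higher and 10 lower (median −1.90), and of the osteopontin receptors 0 of 7 and 5 (−1.19). Alternative activation had 1 of 10 higher and 6 lower (−1.11), resident macrophages 2 of 6 and 4 (−1.29), the Ms4a family 0 of 4 and 3 (−1.08), and the genes around Cd72 0 of 4 and 4 (−1.84). The SLAM genes had 0 of 5 higher and 2 lower (−0.61), class II 0 of 8 and 2 (−0.79), the inflammatory genes 0 of 5 and 1 (−0.48), and the CC chemokines 1 of 7 and 2 (0.20). The median thus turned sign between the limits for resident, SLAM, class II and inflammatory genes. H2-Eb1, higher under the stricter limit, was at 3790 CPM in control and 3510 CPM in progesterone here. The 189 progesterone cells with 3 to 9 C1q UMIs entered only this wider set, and the part of their epithelial and haemoglobin transcripts in these values was not tested.

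**Figure D4:**
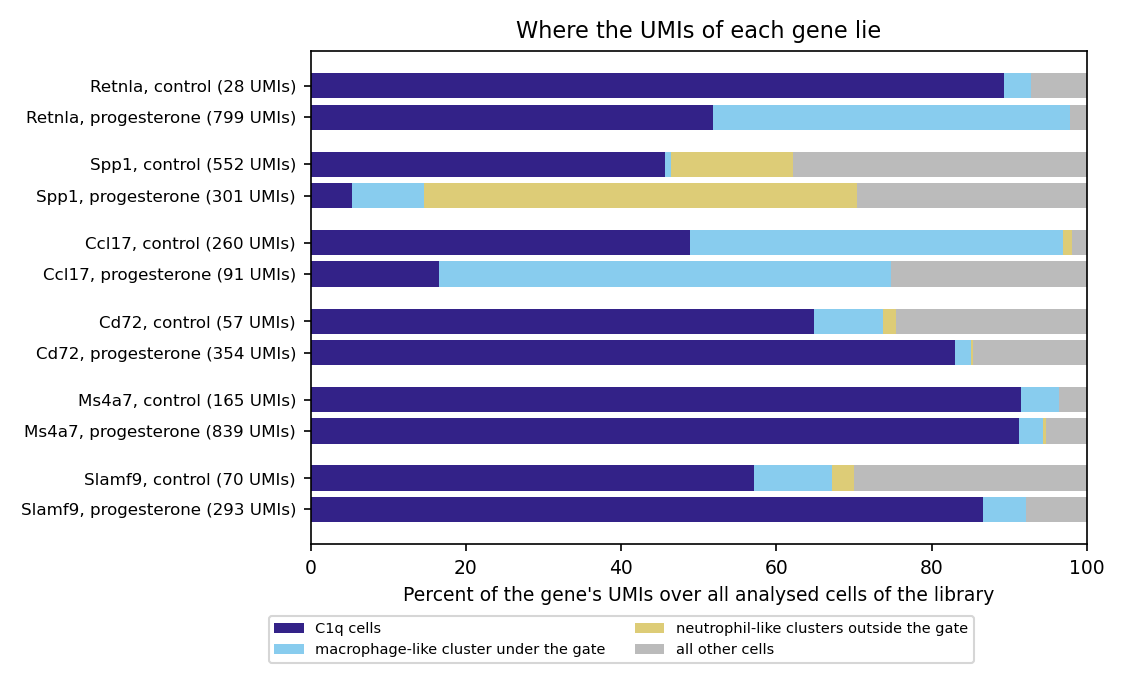
Percent of the UMIs of each gene, over all analysed cells of a library, that lay in C1q cells, in the macrophage-like cluster under the C1q limit, in neutrophil-like clusters and in all other cells. Ms4a7 lay at 91.5% and 91.3% in C1q cells, Retnla and Ccl17 reached into cluster cells with little C1q, and Spp1 lay mostly outside macrophages in progesterone.

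Outside the C1q limit the 6 genes differed. Ms4a7 was the most confined to it, with 91.5% of its control and 91.3% of its progesterone UMIs in C1q cells. Cd72 had 64.9% and 83.1% there, and Slamf9 57.1% and 86.7%. Retnla had 89.3% of 28 control UMIs in C1q cells. Of 799 progesterone UMIs 51.8% were there and 46.1% in the macrophage-like cluster under the limit, the latter in 8 cells. Keratin-rich cells had Retnla in 0.193% of progesterone cells, at 0.432 CPM.

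Ccl17 had 48.8% of 260 control UMIs in C1q cells and 48.1% in 6 cells of the cluster under the limit, at 1372 CPM there. In progesterone 58.2% of 91 UMIs were in 10 such cells, at 118 CPM. One of these control cells held 66 of the 125 UMIs. Without the highest cell of each library the levels were 663 CPM [505 to 855] and 76.0 CPM [52.6 to 106]. The shares of these cells with a Ccl17 UMI were 10.2% in control and 6.62% in progesterone. The 10 control cells with at least 3 Ccl17 UMIs had 23 to 90 Cd74 UMIs and 0 to 22 C1q UMIs, and 5 of the 10 had no C1q UMI. Dendritic list UMIs reached 11 in these cells, and their part was not tested. In progesterone, 2 cells with 9 and 11 Ccl17 UMIs also had 4 Retnla UMIs each, with 13 and 4 UMIs of the lectin Mgl2 and no C1q.

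Spp1 had the lowest share of its UMIs in C1q cells of the 6 genes in both libraries. Neutrophil-like cells of cluster 6 carried it in both libraries, at 353 CPM [277 to 444] in control and 427 CPM [365 to 497] in progesterone, in 11.9% and 11.5% of cells. The intervals overlap within that cluster. Cluster 14, also neutrophil-like, had 18.0 CPM [9.59 to 30.8] in 200 control cells and 97.2 CPM [11.8 to 351] in 7 progesterone cells. Over both clusters Spp1 was at 93.4 CPM [74.8 to 115] in control and 411 CPM [351 to 478] in progesterone, higher with progesterone and beyond the intervals, while the makeup of the 2 clusters differed between the libraries. Whether the 2 cell types differ in their response was not tested, since it would need replicate libraries. Of 552 control UMIs 45.7% lay in C1q cells and 15.8% in neutrophil-like cells, and of 301 progesterone UMIs 5.32% and 55.8%. Part of the rest lay in clusters left without a name. Cluster 8, led by Sprr2d, Lcn2 and Cxcl5, had 36.8 CPM [31.1 to 43.3] in control, in 68 of 643 cells, and 63.6 CPM [39.4 to 97.2] in 33 progesterone cells. Cluster 20, led by Psca, Sprr2d and Lcn2, had 73.8 and 131 CPM. Keratin-rich cells as a whole stood at 10.9 CPM in control and 2.504 in progesterone. In the progesterone macrophage-like cluster 1 cell under the limit had 25 Spp1 UMIs, with 43 of Apoe and no C1q, and with all cells of that cluster the difference between the libraries was 24.0-fold.

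Slamf9 was also found in cluster 15, left without a name because plasmacytoid and immunoglobulin genes both led it (Siglech, Irf8, Igkc). It stood there at 301 CPM [172 to 489] in control and 116 CPM [50.2 to 229] in progesterone, in 9 of 38 and 4 of 32 cells. Cd72, known also from B cells, was in 6 of 32 progesterone cells of that cluster, at 87.2 CPM. Outside C1q cells, Ms4a7 in progesterone had 26 UMIs in the macrophage-like cluster and at most 9 in any other.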

How the data were processed

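The 6 genes, the gene lists and the cell type markers were chosen with earlier results of these data known. The deposited matrices give UMI counts, not normalized, for each gene in each barcode, made by the authors with Cell Ranger 3.0.2 on mm10, per the submitters' processing notes, after a 10x Genomics 3′ version 3.1 library, per the labels. Other settings are not given in the sources used here. Of 31053 identifiers 30934 were in GENCODE release M21 (GRCm38). Cells needed 200 detected genes and no more than 20% of UMIs from mitochondria. Scrublet scores removed the top 0.8% per 1000 cells in each library, 181 control and 680 progesterone cells. Cells of both libraries were clustered together (scanpy 1.11.5, 2000 variable genes, 30 components, 15 neighbours, Leiden resolution 1) without the 6 genes and mitochondrial genes. A cluster took a name from fixed markers only where at least 3 were detected and its leading genes fitted, so names are rebuilt and not the authors'. Keratin-rich cells had at least 10 keratin UMIs outside the gate and the macrophage-like cluster. Named genes were the 6 members, the 3 C1q genes, the 8 (Retnla, Spp1) or 3 best ranked companions, and list genes. Log2 ratios in gene lists had 0.5 added to each count. Interval code was tested on simulated data. Cells are not replicates, so no p-value was computed.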

Additional observations from a re-analysis of the deposited data

How the results depend on the processing

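The log2 ratios of the 6 genes, progesterone over control, kept their sign in all 12 alternatives each. No paired analysis was possible because each group has 1 library, and no library could be left out. A bound below sets a count of 0 to a floor of 3 counts, which 1 carrying cell could exceed. Leaving out the highest cells took away the only control Retnla cell and the only progesterone Ccl17 cell, so those counts of 0 were fixed beforehand. Values that moved beyond the counting interval of the reported one follow, and the cause was not tested. For Retnla (2.01) they were 2.85 with at least 10 C1q UMIs, 6.94 (a bound) with macrophages chosen by Csf1r, Adgre1, Cd68 and Fcgr1, 3.07 with all cells of the macrophage-like cluster and 4.58 (a bound) without the highest cell of each library. For Spp1 (−6.02) they were −3.42 with those 4 genes, −5.25 with doublets kept, −4.42 as the mean of each cell's CPM, −4.59 in the whole cluster and −5.05 without the highest control Spp1 cell. For Ccl17 (−5.12) they were −3.89 (a bound) with at least 10 C1q UMIs, −2.69 with the 4 genes, −3.73 in the whole cluster and −6.82 (a bound) without the highest cells. For Cd72 (0.95) they were 2.26 and 2.47 with 10 C1q UMIs and the 4 genes, and for Slamf9 (0.63) 1.76 and 1.72. For Ms4a7 (0.30) they were 1.27 and 1.36 with those limits, 0.71 with a keratin limit of 1%, 0.85 as the mean of cells and 0.70 within the cluster. The counts of genes past 2-fold, 912 higher and 1079 lower, became 361 and 458 with at least 50 UMIs and 2245 and 2685 with at least 1 UMI, as fewer or more genes were tested. Without thinning, Cd72 was in 21.6% of control cells, Ms4a7 in 52.0% and Slamf9 in 34.0% of progesterone cells. The alternatives on the cluster, on single high cells and on erythrocyte transcripts were chosen after seeing the data. The number of carrying cells limits statements on Retnla and Spp1 in the same cell, with 7 and 12 cells in progesterone and 1 Retnla cell in control.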
